A study of Mus musculus with 13 samples.

Results

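The RNA polymerase machinery of adult mouse Sertoli cells was described through the genes that encode the subunits of RNA polymerases I, II and III (Pol I, Pol II and Pol III) and their dedicated initiation and release factors. The members were the rows of the count table whose symbol starts with *Polr1*, *Polr2* or *Polr3* followed by a letter, together with *Rrn3*, *Ubtf*, *Taf1a* to *Taf1d*, *Ttf1*, *Tbp*, *Brf1*, *Bdp1*, *Cavin1* and *Maf1*. The rule used names alone and no measured value, and it found 40 genes, 28 subunits and 12 factors, among 27111 named rows of a table with 54281 rows. Sertoli cells, the somatic cells that nourish germ cells in the seminiferous tubules, came from adult wild-type C57Bl/6J males that had grown up undisturbed (control, n = 6) or under maternal separation joined with stress of the mother, both unpredictable (MSUS, n = 7). The MSUS exposure ended at postnatal day 14, long before cells were taken, and took 3 h of each day from day 1. The mother's own stress was either 5 min of swimming at 18°C or 20 min of restraint. Cells were sorted from digested testis as large diploid cells with a high mitochondrial dye signal, and no gene was modified in either group. The comparison asks which parts of the transcription machinery differ between MSUS and control males.

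Pol I makes the large ribosomal RNA precursor, Pol II makes messenger RNA, and Pol III makes transfer RNA and other short RNAs. Each enzyme has its own pair of large catalytic subunits and its own smaller subunits. Pol I and Pol III share *Polr1c* and *Polr1d*, and all of the enzymes share *Polr2e*, *Polr2f*, *Polr2h*, *Polr2k* and *Polr2l*, so a gene named *Polr2* can serve ribosomal RNA synthesis as well. Pol I is brought to its promoter by UBTF and by the selectivity factor SL1, which holds TBP and the products of *Taf1a* to *Taf1d*. Pol III is brought to its genes by TFIIIB, which holds TBP, BRF1 and BDP1. Sertoli cells no longer divide in the adult.

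The libraries held 13087203 to 18649945 counts in the control group and 12701776 to 15693938 in the MSUS group. Levels are given as log2 CPM, the counts of a named gene scaled to the TMM-normalized library size, with a prior count of 2. Each sample is a separate mouse. In all 78 pairs of libraries the squared difference, averaged over genes, was at least 6.07 times the variance from sampling alone. All 40 members passed the filter on low counts, and so did 14421 genes in all. The lowest count of a member in any sample was 10, for *Cavin1*, and the highest was 5981, for *Ubtf*. The 8 Sertoli cell markers had a mean level of 8.97 in controls and 8.94 in MSUS samples, and none of them had p under 0.05. Macrophage markers did not pass the filter and *Lyz2* was at 0 counts in every library. The mean of the 3 peritubular myoid cell markers lay between 0.89 and 3.87 in controls and between 1.40 and 4.39 in MSUS samples. The 4 endothelial markers averaged 3.09 in controls and 3.34 in MSUS samples, and their mean lay above the control mean in each MSUS sample. Their log2 fold changes ran from -0.15 for *Cdh5* to 0.75 for *Tek* (SE 0.31, exact permutation p = 0.014), the only one with limma p under 0.05. Of 6 spermatocyte markers, 5 had log2 fold changes below 0, with a median of -0.25 and a range from -0.34 for *Sycp2* (p = 0.0379 by limma, exact permutation p = 0.107) to 0.18 for *Spag6*. All 4 elongated spermatid markers had log2 fold changes above 0, from 0.06 to 0.32, and none had p under 0.05. The part of these cells in the values of the members was tested only through a fit with the elongated spermatid markers as a covariate. In that fit 5 members were higher and 3 lower at p under 0.05 (limma). Over all genes 760 were higher and 412 lower in it, where the fit without a covariate had 435 and 346. In bulk samples fewer cells of a type and less RNA per cell cannot be told apart.

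In control samples, the level per kilobase of transcript differed widely between the subunits of the 3 enzymes. On this scale, CPM per kilobase of the median annotated transcript length, the 3 Pol I subunits had a median of 5.54, the 10 Pol III subunits a median of 18.6 and the 8 Pol II subunits a median of 31.6. *Polr1b*, the second-largest Pol I subunit, was the least abundant of these 3 with 2.51 CPM per kilobase, and *Polr1a*, the largest, the most abundant with 12.8. *Cd3eap*, a Pol I subunit listed under an older symbol and outside the naming rule, was at 16.1. Pol II subunits were more even, from 17.3 for *Polr2d* to 47.9 for *Polr2m*. *Polr3b*, the second-largest Pol III subunit, was at 5.45 and *Polr3g* at 104. Subunits that all enzymes share lay between 7.65 for *Polr2l* and 33.0 for *Polr2e*. *Polr1d* reached 153 CPM per kilobase, the highest level of any member, ahead of the Pol I factors *Taf1d* with 137 and *Ubtf* with 128. The order depends on the length used. The level of *Tbp*, 58.3 with a median transcript length of 967 bases, would be lower with its longest transcript of 12794 bases. The share of germ cell RNA in these levels was not tested.

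**Figure D1:**
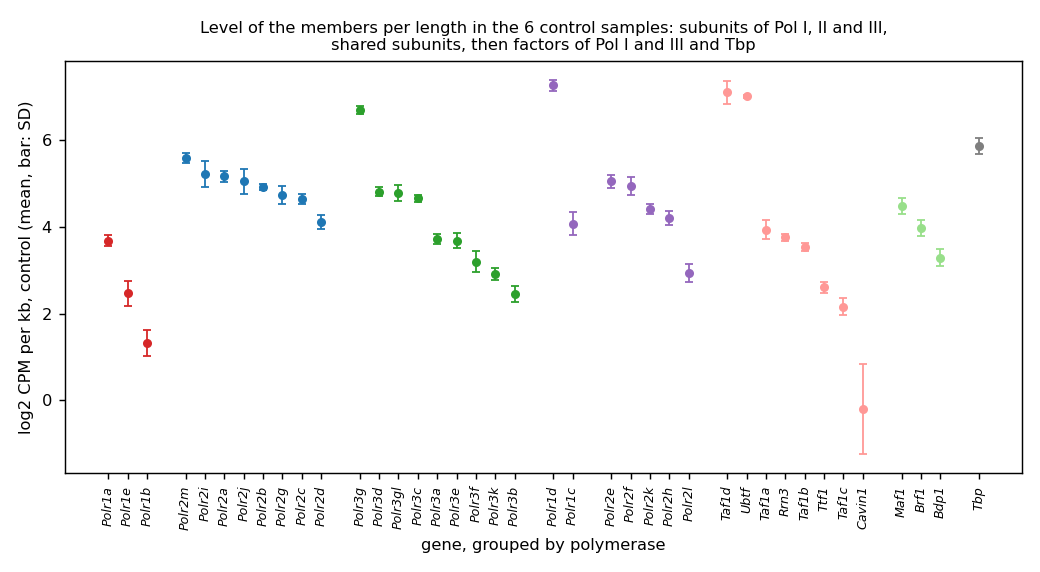
Level of 39 members in the 6 control samples, as log2 CPM per kilobase of median transcript length (vertical axis), with genes along the horizontal axis grouped by polymerase; points are means and bars are SD. The Pol I subunits, from *Polr1b* to *Polr1a*, lie below each Pol II subunit, while *Polr1d*, *Taf1d*, *Ubtf* and *Polr3g* stand at the top and *Cavin1* at the bottom with the widest bar.

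No member differed between MSUS and control samples after adjustment for multiple tests. The smallest adjusted p over all genes was 0.878 (limma voom, Benjamini-Hochberg), and 0% of the 14421 genes had an adjusted p under 0.05. None of the members passed by edgeR or DESeq2 either. At unadjusted p under 0.05, 5 members were higher in MSUS samples (*Polr1a*, *Polr1b*, *Polr3a*, *Taf1c* and *Taf1d*) and 3 were lower (*Polr1d*, *Polr2k* and *Polr2l*). The 5 are 12.5% of the members, where 3.02% of all genes tested were higher at that threshold, and the 3 are 7.5%, where 2.4% of all genes were lower. With library size alone as the scaling, 4 members were higher and 4 lower, and over all genes 325 were higher and 469 lower instead of 435 and 346. Log2 fold changes were below 0 for 25 members, 62.5% of them, where the background was 50.5% of all genes. No member had every MSUS sample below every control, which 0.0555% of all genes showed, nor every MSUS sample above every control, which 0.0763% showed. The 95% confidence intervals reached a median of 0.21 to either side of the fold change.

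**Figure D2:**
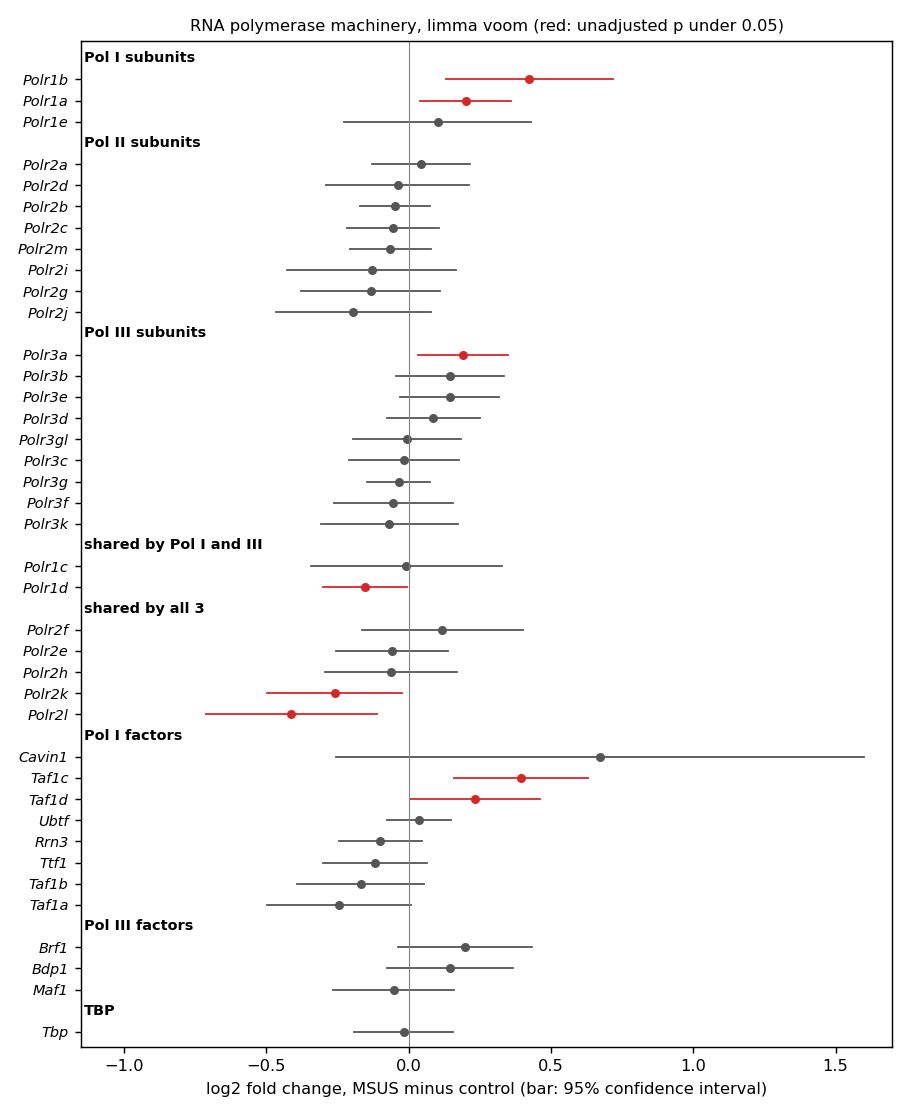
Log2 fold change, MSUS minus control, of 39 members by limma voom (points) with 95% confidence intervals (bars), grouped by polymerase; red marks unadjusted p under 0.05. Catalytic subunits of Pol I and Pol III lie to the right of 0 and 7 of 8 Pol II subunits to the left, with 8 intervals that leave out 0.

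All 3 Pol I subunits had log2 fold changes above 0. *Polr1b*, on chromosome 2 of GRCm38 from 129100995 to 129126594, had a lowest, median and highest level of 2.71, 3.12 and 3.48 log2 CPM in controls and of 3.25, 3.55 and 3.70 in MSUS samples. In 5 of 7 MSUS samples it exceeded every control. The log2 fold change was 0.42 (SE 0.14, p = 0.00716, adjusted p = 0.878, limma), and a two-sided exact permutation of the group labels gave p = 0.00583. *Polr1b* had low counts, down to 68 in a control sample. In 12 of 13 samples its estimated count was not a whole number, with a small allowance for rounding. Part of its reads was thus divided between features by the authors' tool. *Polr1a*, which holds the larger part of the active site, lies on chromosome 6 from 71909053 to 71984935. Its lowest, median and highest levels were 6.74, 6.87 and 7.10 in controls and 6.91, 6.99 and 7.32 in MSUS samples. All 7 MSUS samples lay above the control mean and 3 above every control, yet the groups overlapped over much of their range. The log2 fold change of *Polr1a* was 0.20 (SE 0.08, p = 0.017, limma, exact permutation p = 0.0303). *Polr1e*, a subunit that associates loosely with the core, was at 3.15 ± 0.28 (SD, n = 6) in controls and 3.25 ± 0.27 (SD, n = 7) in MSUS samples, a difference within that spread (exact permutation p = 0.546). A further 3 Pol I subunits are listed under older symbols and were not reached by the naming rule. Their log2 fold changes were 0.03 for *Twistnb*, 0.08 for *Cd3eap* and -0.07 for *Znrd1*, and none had p under 0.05.

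Pol II subunits showed no difference beyond the spread between mice. *Polr2a*, the largest subunit, whose tail carries the phosphorylation marks of the transcription cycle, was at 7.80 ± 0.12 (SD, n = 6) in controls and at 7.85 ± 0.19 (SD, n = 7) in MSUS samples. Its log2 fold change was 0.05, with a 95% confidence interval from -0.13 to 0.22. *Polr2b*, which completes the active site, had -0.05, with an interval from -0.17 to 0.07. These intervals leave out 0.42, the log2 fold change of *Polr1b*, whose own interval, from 0.13 to 0.72, overlaps that of *Polr2a*. The 0.20 of *Polr1a* lay within the interval of *Polr2a* and outside that of *Polr2b*. Subunits of Pol I and Pol II were not tested against each other. The largest absolute log2 fold change of a Pol II subunit was -0.19, for *Polr2j* (exact permutation p = 0.124), a small subunit of the assembly platform. Controls held 4.01 to 4.71 and MSUS samples 4.02 to 4.52, so the MSUS range lay within that of the controls. *Polr2m*, which regulates the paused enzyme and is the most abundant of this group per kilobase, had a log2 fold change of -0.06, and *Polr2d*, the least abundant, of -0.04. *Polr2c*, *Polr2g* and *Polr2i* lay between -0.13 and -0.06.

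Among the 10 Pol III subunits, *Polr3a*, the largest catalytic subunit, on chromosome 14 from 24448696 to 24487058, had p under 0.05. Its lowest, median and highest levels were 5.80, 5.96 and 6.07 in controls and 5.91, 6.15 and 6.32 in MSUS samples. It exceeded every control in 5 of 7 MSUS samples and lay below the control mean in 1. The log2 fold change was 0.19 (SE 0.07, p = 0.0205, limma, exact permutation p = 0.0262), and without control replicate 14 its limma p was no longer under 0.05. *Polr3b*, the catalytic partner of *Polr3a*, was at 4.76 ± 0.18 (SD, n = 6) in controls and at 4.90 ± 0.12 (SD, n = 7) in MSUS samples, with a log2 fold change of 0.14 (p = 0.128 by limma, exact permutation p = 0.134). *Polr3e*, a subunit of the enzyme's initiation and termination part, also had 0.14, with all 7 MSUS samples above the control mean (p = 0.0966 by limma, exact permutation p = 0.0822). The remaining subunits lay between -0.07 for *Polr3k* and 0.09 for *Polr3d*. *Polr3g* and *Polr3gl* encode alternative forms of the same subunit, the first known from stem and germ cells and the second from most tissues. *Polr3g* was at 7.62 ± 0.09 (SD, n = 6) in controls and 7.58 ± 0.04 (SD, n = 7) in MSUS samples, and *Polr3gl* at 4.80 ± 0.18 (SD, n = 6) and 4.79 ± 0.09 (SD, n = 7). Per kilobase, *Polr3g* exceeded *Polr3gl* by 3.10 to 4.89 times in controls and by 3.36 to 4.28 times in MSUS samples, and with the longest transcript of each gene by 2.70 to 4.25 times in controls. The log2 fold changes of the pair were -0.04 and -0.01, with intervals from -0.15 to 0.07 and from -0.19 to 0.18. Germ cell transcripts were present in these libraries. In controls the elongated spermatid markers had a mean level of 7.90 and the spermatocyte markers of 5.14, beside 8.97 for the Sertoli cell markers. How far germ cell RNA entered the levels of *Polr3g* and *Polr3gl* was not tested.

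Among the shared subunits, all 3 with p under 0.05 were lower in MSUS samples. *Polr2l*, a small zinc-binding subunit of every enzyme, lies on chromosome 7 from 141471860 to 141475132. Its lowest, median and highest levels were 3.36, 3.75 and 3.86 in controls and 3.04, 3.18 and 3.89 in MSUS samples. In 6 of 7 MSUS samples it lay below every control, and MSUS sample 5 lay above every control. The log2 fold change was -0.41 (SE 0.14, p = 0.00974, limma, exact permutation p = 0.0198). *Polr2k*, likewise a small zinc-binding subunit, on chromosome 15 from 36174010 to 36177010, had 3.43, 3.54 and 3.70 in controls and 3.08, 3.30 and 3.51 in MSUS samples. It was below every control in 5 of 7 MSUS samples, with a log2 fold change of -0.26 (SE 0.11, p = 0.0335, limma, exact permutation p = 0.00874). The estimated counts of *Polr2k* and *Polr2l* were not whole in any of the 13 samples. *Polr1d*, part of the platform on which Pol I and Pol III assemble, on chromosome 5 from 147077050 to 147111597, had 7.26, 7.47 and 7.62 in controls and 7.14, 7.36 and 7.45 in MSUS samples. Its log2 fold change was -0.15 (SE 0.07, p = 0.0445, limma, exact permutation p = 0.0571), and 2 MSUS samples lay below every control. Its partner *Polr1c* had -0.01 and was higher in 4 of 7 MSUS samples than the control mean. The log2 fold changes of *Polr2e*, *Polr2f* and *Polr2h* lay between -0.06 and 0.12. Leaving out a single sample ended p under 0.05 for *Polr2k* in 6 of 13 cases (control replicates 9, 10 and 24 and MSUS replicates 13, 23 and 26) and for *Polr1d* in 9 of 13 (each control but 10, and MSUS replicates 5, 6, 11 and 26), and for *Polr2l* in none.

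Of the 8 Pol I factors, 2 subunits of SL1 were higher in MSUS samples. *Taf1c*, on chromosome 8 from 119597871 to 119605222, had a lowest, median and highest level of 3.64, 3.86 and 4.18 in controls and of 3.93, 4.32 and 4.42 in MSUS samples, and 5 of 7 MSUS samples lay above every control. The log2 fold change of *Taf1c* was 0.39 (SE 0.11, p = 0.00254, adjusted p = 0.878, limma, exact permutation p = 0.00583), the smallest p among the members. *Taf1d*, on chromosome 9 from 15306214 to 15316991, had 6.002, 6.43 and 6.72 in controls and 6.35, 6.70 and 6.88 in MSUS samples. Its log2 fold change was 0.23 (SE 0.11, p = 0.0452, limma, exact permutation p = 0.0874), and leaving out any of 8 single samples (control replicates 9, 12 and 24, MSUS replicates 1, 5, 6, 13 and 23) ended its limma p under 0.05. The *Taf1d* locus hosts several snoRNAs on the same strand, and its estimated counts were not whole in any sample, so its value is uncertain. *Taf1c* overlaps *Dnaaf1* on the opposite strand. *Polr1a*, *Polr1d* and *Taf1d* also overlap annotated genes on the opposite strand, and 17 members do so in all. Whether the counting used strand is not given in the sources used here. The other SL1 subunits had log2 fold changes below 0, -0.24 for *Taf1a* (p = 0.0583 by limma, exact permutation p = 0.0659) and -0.17 for *Taf1b* (exact permutation p = 0.0868), so the 4 genes of the complex did not move in 1 direction. *Rrn3*, which makes Pol I competent to start, had -0.10, and *Ttf1*, which ends Pol I transcription, had -0.12, with all 7 MSUS samples below the control mean. *Ubtf*, the factor that coats active ribosomal DNA, was at 8.68 ± 0.03 (SD, n = 6) in controls and at 8.72 ± 0.11 (SD, n = 7) in MSUS samples.

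*Cavin1*, known as a transcript release factor of Pol I and as a coat protein of caveolae, had the largest log2 fold change of the members, 0.67, and the widest interval, from -0.25 to 1.60 (exact permutation p = 0.2). Its counts ran from 10 to 92 in control samples and from 18 to 85 in MSUS samples. The 4 samples with the most *Cavin1* counts, 66 to 92, also had the highest means of the peritubular myoid cell markers, 3.60 to 4.39. MSUS sample 23, with 51 counts, and control sample 24, with 48, came next in both measures, with means of 2.90 and 2.77. Among the rest, with 10 to 40 counts and means from 0.89 to 2.02, the 2 measures had a different order. Control sample 14, with 10 counts, had a mean of 2.02 and control sample 10, with 35 counts, had 0.89. The part of these cells in the *Cavin1* values was not tested. Among Pol III factors *Brf1* was at 5.35 ± 0.19 (SD, n = 6) in controls and at 5.55 ± 0.24 (SD, n = 7) in MSUS samples, with a log2 fold change of 0.20 (p = 0.0924 by limma, exact permutation p = 0.145). *Bdp1* had 0.15 and *Maf1*, the repressor of Pol III, had -0.05, with an interval from -0.26 to 0.16. *Tbp*, which all of the enzymes use, was at 5.81 ± 0.18 (SD, n = 6) in controls and at 5.80 ± 0.12 (SD, n = 7) in MSUS samples, with an interval of the log2 fold change from -0.19 to 0.16.

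**Figure D3:**
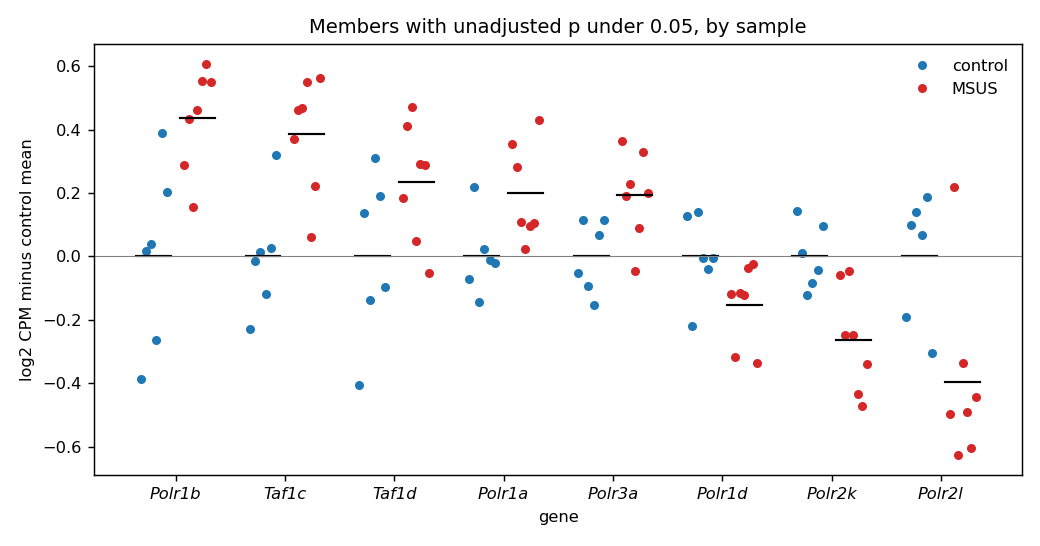
Level of the 8 members with unadjusted p under 0.05 in each sample, as log2 CPM minus the control mean (vertical axis), for control samples (blue) and MSUS samples (red); short lines are group means. Both groups overlap for each gene, with 5 of 7 MSUS samples above every control for *Polr1b*, *Taf1c* and *Polr3a*, and 6 of 7 below every control for *Polr2l*, whose MSUS sample 5 lies at the top.

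The promoters of the 4 members with p under 0.05 in the most settings are shown, because they point in opposite directions between MSUS and control. Each stretch covers 120 bases before and 30 after the RefSeq transcription start on GRCm38.p6. They lie at chr2:129100876-129101025 on the plus strand for *Polr1b*, chr6:71908933-71909082 on the plus strand for *Polr1a*, chr8:119605177-119605326 on the minus strand for *Taf1c* and chr7:141475124-141475273 on the minus strand for *Polr2l*. Capitals mark matches on either strand to the motifs GGGCGG, the GC box, CCGGAAG, the core bound by ETS factors, and CCAAT.
Polr1b: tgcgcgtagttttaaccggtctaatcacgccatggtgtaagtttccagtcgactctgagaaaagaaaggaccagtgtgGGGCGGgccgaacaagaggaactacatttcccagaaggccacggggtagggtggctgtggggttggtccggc
Polr1a: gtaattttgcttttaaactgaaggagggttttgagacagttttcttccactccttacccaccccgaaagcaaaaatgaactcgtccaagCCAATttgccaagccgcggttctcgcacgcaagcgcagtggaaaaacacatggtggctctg
Taf1c: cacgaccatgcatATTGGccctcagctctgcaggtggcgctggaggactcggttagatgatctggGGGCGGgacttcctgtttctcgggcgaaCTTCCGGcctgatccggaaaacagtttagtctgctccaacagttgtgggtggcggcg
Polr2l: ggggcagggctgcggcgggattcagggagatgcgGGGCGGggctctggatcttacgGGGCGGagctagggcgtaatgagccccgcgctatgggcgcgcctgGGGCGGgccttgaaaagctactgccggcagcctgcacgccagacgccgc
*Polr2l*, lower in MSUS samples, had 3 GC boxes, *Polr1b* had 1, *Taf1c* had 1 match to each of the motifs, and *Polr1a* had CCAAT alone. Over windows of 250 bases before to 50 after the start, the RefSeq table held 32 of the 40 members. GGGCGG was found in 65.6% of these and in 38.2% of all 27025 genes, CCGGAAG in 40.6% against 9.93%, CCAAT in 37.5% against 41.1%, GCATGCGC (NRF1 core) in 12.5% against 3.05%, and TATAAA in 6.25% against 15.7%, counting both strands and matches that overlap. The 27025 genes were not limited to those past the filter on low counts, which all 40 members passed. No comparison with expressed genes alone was made. The motifs were chosen after values had been seen, and a match is a description of the letters.

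Set side by side, the median log2 fold change was 0.20 over the 3 Pol I subunits, -0.06 over the 8 Pol II subunits, -0.01 over the 10 Pol III subunits and -0.06 over the 7 shared subunits, beside -0.0018 over all genes tested. Single libraries set the smaller of these medians. That of Pol III lay between -0.02 without MSUS replicate 1 and 0.02 without control replicate 22, and was above 0 also without control replicate 14 or MSUS replicate 5, 6, 11, 13 or 23. That of the shared subunits was -0.01 without MSUS replicate 26, and -0.11, -0.10 and -0.10 without control replicate 10, control replicate 12 and MSUS replicate 5. The Pol II median was -0.09 without control replicate 10. With the Pol I subunits of older symbols the median of Pol I was 0.09. With the shared subunits added to the 3 Pol I subunits it was -0.03, and with both added -0.008. The subunits of older symbols alone had a median of 0.03. Of the subunits that Pol I does not share, only *Polr1a* and *Polr1b* had p under 0.05 (limma). The mean level of the 3 Pol I subunits lay at 4.08 to 4.54 log2 CPM in controls and at 4.52 to 4.79 in MSUS samples, and each MSUS sample lay above the control mean. The mean of the shared subunits lay at 4.47 to 4.63 in controls and at 4.22 to 4.53 in MSUS samples, and each MSUS sample lay below the control mean. Within each sample, the mean of the 3 Pol I subunits minus that of the Pol II subunits lay between -1.50 and -0.876 in controls. In MSUS samples it lay between -0.872 and -0.65, so the ranges nearly met. With the older symbols it lay between -1.33 and -0.97 in controls and between -1.01 and -0.89 in MSUS samples, and the groups overlapped. The catalytic pair of Pol I minus that of Pol II lay at -2.67 to -2.13 in controls and at -2.14 to -2.03 in MSUS samples, and the same difference for Pol III from -2.17 to -1.79 and from -1.96 to -1.71. These differences between enzymes are descriptions of the chosen genes and were not tested.

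**Figure D4:**
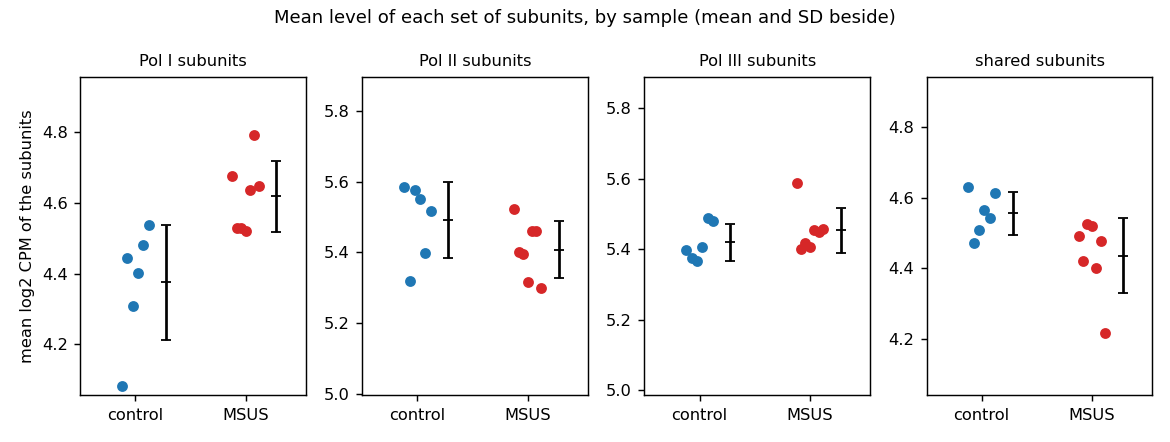
Mean log2 CPM (vertical axis) over the 3 Pol I, 8 Pol II, 10 Pol III and 7 shared subunits in each control sample (blue) and MSUS sample (red), with the group mean and SD in black beside the points; every panel spans the same height. The Pol I means run from 4.08 to 4.54 in control samples and from 4.52 to 4.79 in MSUS samples, while all MSUS samples lie below the control mean of the shared subunits, and the groups overlap in each panel.

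The fold changes of the members moved with the length of their transcripts. Across the 40 members Spearman's rho between log2 fold change and median transcript length was 0.45, and 0.56 across the 28 subunits, beside 0.16 across the 13352 genes with an annotated length. These are correlations across genes, which share the same libraries and are not independent. Members under 1 kb had a median log2 fold change of -0.05, as had the 12 of 1 to 2 kb, the 11 of 2 to 4 kb had 0.09 and the 7 of 4 kb or more 0.14. Over all genes the medians of the same classes were -0.036, -0.026, 0.0065 and 0.044. The catalytic subunits are encoded by long transcripts and the shared subunits by short ones, so between these 2 kinds length and class cannot be told apart. Each enzyme has long catalytic transcripts. Those of Pol II, *Polr2a* with 6269 bases and *Polr2b* with 4145, had log2 fold changes of 0.05 and -0.05. *Polr3a*, with 4687 bases, had 0.19 and *Polr3b*, with 4975, had 0.14. *Polr1a*, with 9216 bases, had 0.20 and *Polr1b*, with 3383, had 0.42. Enzymes were not tested against each other at like length. After a length correction within each sample the log2 fold changes were 0.41 for *Polr1b*, 0.12 for *Polr1a*, 0.38 for *Taf1c* and -0.39 for *Polr2l*, all with limma p under 0.05. *Polr1d* had -0.12 and *Polr2k* -0.23, close to the uncorrected values, with p no longer under 0.05.

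*Malat1*, a long nuclear RNA, was also higher in MSUS samples, at 9.93 ± 0.56 (SD, n = 6) in controls and 10.63 ± 0.43 (SD, n = 7) in MSUS samples. Its log2 fold change was 0.70 (SE 0.22, p = 0.00505 by limma, exact permutation p = 0.0274). With its level as a covariate, *Polr1b* (0.41), *Taf1c* (0.35) and *Polr2l* (-0.62) still had limma p under 0.05. *Polr1a* then had 0.08, *Taf1d* 0.09, *Polr1d* -0.01, *Polr3a* 0.16 and *Polr2k* -0.24, and none of these had p under 0.05. In that fit *Taf1a* was lower, with a log2 fold change of -0.40 and p under 0.05, and the median of the Pol II subunits was 0.03.

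**Figure D5:**
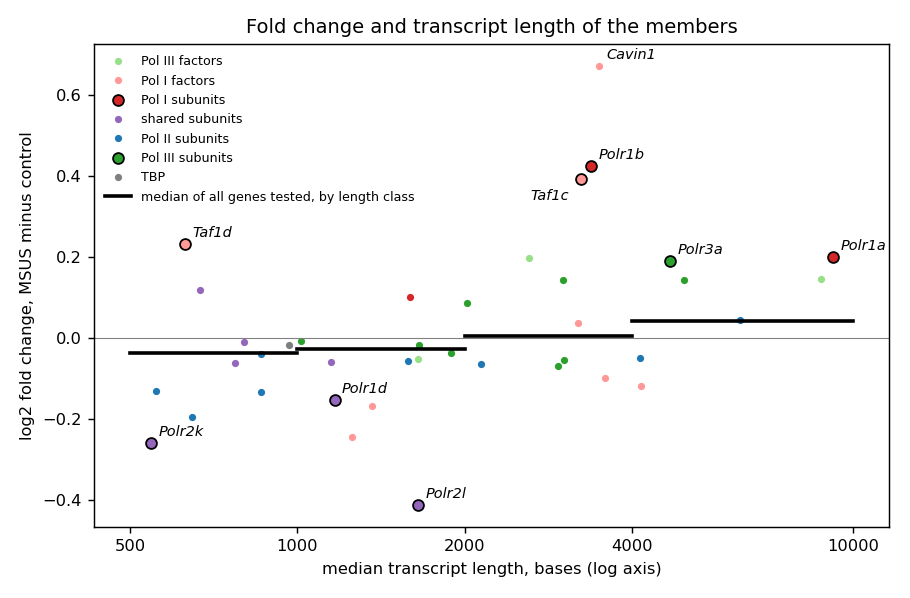
Log2 fold change, MSUS minus control (vertical axis), against the median transcript length in bases (horizontal log axis) for 39 members, coloured by class; large outlined points have unadjusted p under 0.05, and black lines are medians of all genes tested in each length class. Of the outlined points, those below 0 have transcripts under 2 kb, and those above 0 have transcripts over 2 kb, except *Taf1d*.

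Neighbouring parts of the transcription machinery were counted in the same fit. Of 30 general transcription factors of Pol II, 2 were lower at p under 0.05 and 2 higher, where 2.4% and 3.02% of all genes were, shares that hold as the background of the lists that follow too. The lower ones were *Gtf2h1* and *Gtf2h5*, with log2 fold changes of -0.15 and -0.23, both of TFIIH, the complex that opens promoters. The higher ones were *Taf4*, a scaffold subunit of TFIID, with 0.57, and *Ercc2*, a helicase of TFIIH, with 0.18, so TFIIH had members on both sides. Of 24 elongation factors, *Supt4a* was lower with -0.46 (p = 0.00224 by limma, exact permutation p = 0.00758), and *Ccnt2*, *Supt6* and *Leo1* were higher with 0.25, 0.16 and 0.13. *Supt4a* ran at 4.22 ± 0.15 (SD, n = 6) in controls and at 3.76 ± 0.29 (SD, n = 7) in MSUS samples. Of 14 further factors of Pol III and its small nuclear RNA promoters, *Snapc4* was higher with 0.33 and *Snapc5* lower with -0.34. Both are subunits of the same complex. The lower genes named in these lists had median transcript lengths from 706 bases for *Supt4a* to 2187 for *Gtf2h1*. Those of the higher genes ran from 2180 for *Leo1* to 6488 for *Supt6*. The part of length in these fold changes was not tested. None of 12 polymerase assembly factors and none of 28 genes of pre-rRNA processing had p under 0.05 (limma), with log2 fold changes from -0.26 to 0.16 and from -0.11 to 0.19. Their medians were -0.07 and 0.003, beside -0.0018 over all genes.

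The table also lists short RNAs that Pol III makes. Of 8 such rows, 7 passed the filter and none had p under 0.05 (limma), with log2 fold changes from -0.21 to 0.09. *Rn7s1*, the RNA of the signal recognition particle, was at 16.60 ± 0.20 (SD, n = 6) in controls and at 16.54 ± 0.30 (SD, n = 7) in MSUS samples. *Rn7sk*, which holds back the elongation kinase of Pol II, was at 12.98 ± 0.19 (SD, n = 6) and 12.99 ± 0.19 (SD, n = 7), and *Rpph1*, the RNA of RNase P, had a log2 fold change of -0.19 (exact permutation p = 0.24). *Rmrp* was listed at 0 counts in every sample. No row of the ribosomal RNA precursor that Pol I makes was among the named rows used.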

How the data were processed

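RNA of sorted Sertoli cells from 13 mice was sequenced from 5 ng of total RNA with a stranded kit. The authors trimmed reads (Trim Galore 0.6.5, per the labels), assigned them to GENCODE transcripts with Salmon 1.1.0 and deposited estimated counts per gene, without normalization. How transcripts were summed to genes is not given in the sources used here. Features with no gene name (27170 rows, 20.7% to 26.7% of the counts per sample) entered neither library sizes nor tests. The table had 0 columns without a sample.

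Estimated counts were rounded, filtered by filterByExpr, normalized by TMM (edgeR 4.0.16) and fitted with voom in limma 3.58.1 (R 4.3.3), with all 13 samples and no covariate. Of these choices, TMM, voom and limma are those the study's methods name. The Benjamini-Hochberg adjustment of p-values covered every gene in the fit. Single genes were also compared by exact permutation of the samples (1716 splits, smallest possible p 0.000583, two-sided). Spread between mice limits the precision and, for members with low counts, so does counting error. Alternatives were edgeR's quasi-likelihood test, DESeq2 1.42.0, sample quality weights, other scalings and filters, features with no name kept, 2 covariates (elongated spermatid markers and *Malat1*), shared subunits counted in each polymerase and each sample left out. A length correction (the trend of log2 counts on transcript length removed within each sample) was added after the data were seen. Positions and lengths come from GENCODE vM21 of GRCm38, and promoters from RefSeq. Litters and cages were not analysed here.

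The members, lists and tests were chosen with earlier results of these data known. Named genes were each member with p under 0.05, the catalytic pairs, the subunits of largest change and of most and least abundance per polymerase, *Polr3g* and *Polr3gl*, every factor, and genes of other lists with p under 0.05. The single values of 1 member are not reported here, and it is counted in the totals and medians.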

Additional observations from a re-analysis of the deposited data

Results flagged for a closer look

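Each group of each member was searched for a sample far from the others, by Dixon's 95% criterion on log2 CPM. Of 80 groups searched, 6 held such a sample, and chance alone gives about 4. *Polr2l* in MSUS sample 5 was at 3.89, and the nearest MSUS sample was at 3.33. *Maf1* in the same sample was at 4.76, with the nearest at 5.08. *Tbp* in MSUS sample 11 was at 6.04, with the nearest at 5.84. Control sample 24 stood apart in 2 Pol III subunits in opposite directions, *Polr3b* at 5.11 with the nearest at 4.75 and *Polr3f* at 4.30 with the nearest at 4.81. *Polr3g* in control sample 12 was at 7.80, with the nearest at 7.62.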

How the results depend on the processing

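Of 936 fold changes of 39 members under 24 alternatives, 839 kept direction and side of p 0.05, 37 lost p under 0.05, 14 gained it and 46 changed sign, in 17 genes, none of them with p under 0.05. *Polr1b*, *Polr2l* and *Taf1c* had p under 0.05 in each alternative run, and no alternative gave a member an adjusted p under 0.05. With *Malat1* as covariate the count of higher members was 2 (over all genes 200 instead of 435), the median of Pol III subunits was 0.077 and the log2 fold changes were -0.057 for *Bdp1*, 0.17 for *Maf1*, 0.23 for *Polr1c*, -0.079 for *Polr2a*, 0.031 for *Polr2b*, 0.029 for *Polr2c*, 0.11 for *Polr2e*, 0.077 for *Polr2g*, 0.039 for *Polr2i*, 0.0015 for *Polr2j*, 0.037 for *Polr2m*, 0.030 for *Polr3c* and 0.12 for *Polr3k*. With the length correction, chosen after seeing the data, the count of lower members was 1. Over all genes 324 of 13352 were lower in that fit, beside 346 of 14421 in the main fit. *Polr1c* then had 0.027, *Polr2a* -0.011, *Polr3c* 0.0029, *Polr3gl* 0.030 and *Tbp* 0.019. *Polr1c* had 0.026 by edgeR, 0.031 by DESeq2 and 0.038 with sample quality weights, under which *Polr2d* had 0.0055, and *Polr3gl* had 0.022 with elongated spermatid markers as covariate. With the shared subunits counted in it the median of Pol I was -0.033. Leaving out each sample in turn, the count of lower members ran from 1, without MSUS replicate 26 (over all genes 279), to 3. The log2 fold change then ran from -0.12 to 0.011 for *Maf1*, -0.088 to 0.073 for *Polr1c*, -0.011 to 0.092 for *Polr2a*, -0.086 to 0.027 for *Polr2d*, -0.11 to 0.00075 for *Polr2e*, -0.083 to 0.029 for *Polr3c*, -0.050 to 0.0013 for *Polr3g*, -0.046 to 0.051 for *Polr3gl*, -0.11 to 0.013 for *Polr3k* and -0.058 to 0.041 for *Tbp*. The cause of these changes was not tested. No paired analysis was run. The sample labels give no pairing of animals, and the cages and litters that the paper lists in its supplement were not used.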
